A study of Arabidopsis thaliana with 9 samples.

Results

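CML38 (AT1G76650) is a small calmodulin-like, calcium-binding protein of Arabidopsis thaliana, and its transcript was followed here across 9 root samples as the 1 row of the array's value table that the platform annotation pairs with that gene. The table held 38408 rows, of which 16746 were paired with exactly 1 gene and were tested. The roots came from 3 genotypes, the HCR1 mutant lines hcr1-1 and hcr1-2 and their wild type Col-0, with 3 arrays each. All plants were 21 days old, of the Col-0 ecotype, and had grown in hydroponics with replete potassium at a pO2 of 11.1 ± 1.1% (per the labels). RNA was pooled over 5 plants per sample, and 100 ng of it was the starting amount for each array. HCR1 belongs to the Raf-like kinases and bears on how readily water crosses the root, and where its gene is broken in either line is not stated in the labels. Every sample was hypoxic, so genotypes were compared at low oxygen alone, and the induction of CML38 by hypoxia was not measured.

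Calcium enters the cytosol of root cells within a short time of oxygen shortage, and proteins with EF-hand motifs bind it and pass the signal on. Calmodulins and the larger group of calmodulin-like proteins are such sensors, with no catalytic activity of their own. CML38 is one of the genes that hypoxia induces in many cell types of roots and shoots, and its protein has been found in cytosolic RNA granules of hypoxic cells. The wider hypoxia response is driven by group VII ethylene response factors, which oxygen destabilises, and includes fermentation enzymes, alanine aminotransferase and the feedback repressor HRA1.

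The values were log2 signals whose array medians lay between 3.41 and 3.48, and arrays correlated with one another at 0.984 to 0.993 over the tested rows (Pearson r across genes, which are no replicates of each other). The locus AT3G24715 was taken as HCR1 from background knowledge, since the gene table gives it no symbol. Its row held 3.02 ± 0.58 in hcr1-1, 4.30 ± 0.069 in hcr1-2 and 4.78 ± 0.16 in Col-0 (SD, n = 3 each), with all 6 mutant arrays below all 3 Col-0 arrays. Of the root tissue genes listed, 3 of 11 were measured. The root hair expansins EXPA7 and EXPA18 held 4.47 to 4.95 and 3.45 to 4.27, and the xylem gene GUT2 6.21 to 6.65. The shoot genes RCA and LHCB4.1, 2 of 5 listed, held 4.04 to 4.62 and 4.35 to 4.92. These ranges overlapped those of the root hair genes, so the signals do not tell root from shoot. GUT2 lay at 6.21 to 6.47 in the 6 mutant arrays, against 6.49 to 6.65 in Col-0, a separation that 0.711% of all rows shared. Its log2 fold change was -0.25 (SE 0.11) in hcr1-1 and -0.16 (SE 0.11) in hcr1-2 (limma adjusted p 0.9999 and 0.936). The part of GUT2 in the results below was not tested. In whole roots, fewer cells of a type and less RNA per cell cannot be told apart.

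CML38 signal was lower on average in both mutant lines than in Col-0, by more in hcr1-2 than in hcr1-1, with a wide spread inside each genotype. In hcr1-1 the 3 arrays held 4.53, 2.87 and 4.59. In hcr1-2 they held 2.83, 2.81 and 3.99. In Col-0 they held 5.23, 3.86 and 5.26. The groups overlapped: Col-0 replicate 2, at 3.86, lay below both higher hcr1-1 arrays and below the highest hcr1-2 array, while the other Col-0 arrays lay above all 6 mutant arrays. Between the highest and the lowest array the signal differed 5.47-fold (2.45 log2 units). The lowest arrays, at 2.81, 2.83 and 2.87, lay below all array medians (3.41 to 3.48), and detection could not be called there.

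**Figure D1:**
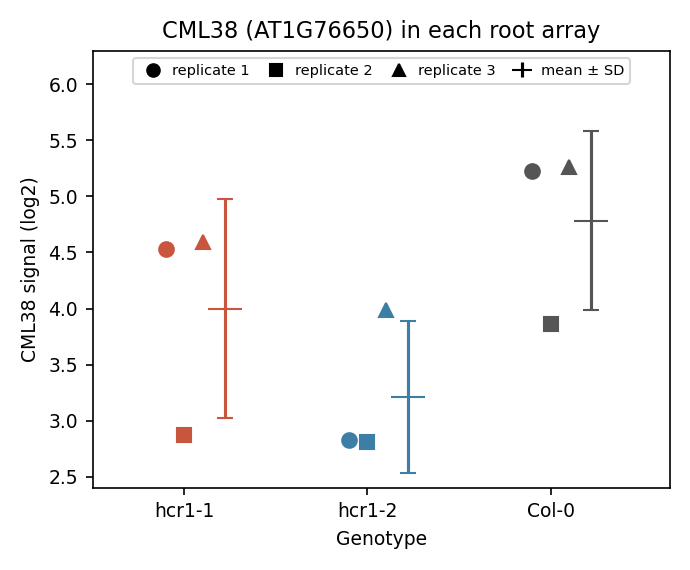
CML38 log2 signal (vertical axis) in each of the 9 arrays, by genotype (horizontal axis), with the replicate number as symbol and mean ± SD beside the points (n = 3 per genotype). Replicates 1 and 3 of Col-0 (5.23 and 5.26) lie above every mutant array, while Col-0 replicate 2 (3.86) lies within the range of both mutant lines.

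The genotype means were 4.0 ± 0.98 in hcr1-1, 3.21 ± 0.68 in hcr1-2 and 4.79 ± 0.80 in Col-0 (SD, n = 3 each). In that order of levels, Col-0 above hcr1-1 above hcr1-2, neither pair of neighbours differed beyond the spread of its arrays when replicate numbers were ignored. With replicate number as a block, the unadjusted limma p was 0.0152 in hcr1-1 against Col-0 and 0.0155 in hcr1-2 against hcr1-1. The adjusted p in that fit was 0.9999 and 0.839. In hcr1-2 the CML38 signal was 33.6% of that in Col-0, or -1.57 as a log2 fold change (SE 0.50, with a 95% interval of -2.67 to -0.48). The limma p of that difference was 0.00893 before adjustment and 0.903 after Benjamini-Hochberg adjustment over all 16746 rows. In hcr1-1 it was 57.9% of that in Col-0, or -0.79 as a log2 fold change (SE 0.50, with a 95% interval of -1.89 to 0.31), with a limma adjusted p of 1.00. Over the mean of both alleles CML38 differed from Col-0 by -1.18 (SE 0.43, with a 95% interval of -2.13 to -0.23), with an unadjusted limma p of 0.0191 and an adjusted p of 0.998. Between the alleles, hcr1-2 differed from hcr1-1 by -0.79 (SE 0.50, with a 95% interval of -1.88 to 0.31) and the limma adjusted p was 0.923, an interval that holds differences of either sign.

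No comparison called CML38, and none called any other row: 0% of the 16746 rows had an adjusted p under 0.05 in each of the 4 comparisons. Before adjustment, 2.35% of all rows were lower in hcr1-2 than in Col-0 at p under 0.05, and CML38 was among these 393 rows. Exact two-sided permutation tests of the CML38 values gave p = 0.119 for the 6 mutant arrays against the 3 Col-0 arrays, where 0.0238 is the smallest possible. The same exact tests gave p = 0.2 for hcr1-2 and p = 0.4 for hcr1-1 against Col-0, and p = 0.2 for hcr1-2 against hcr1-1, where 3 arrays against 3 cannot go below 0.1. Single arrays decided the size of the differences. Without hcr1-1 replicate 2 the log2 fold change in hcr1-1 was -0.22, and without Col-0 replicate 2 it was -1.25 in hcr1-1 and -2.04 in hcr1-2. Without hcr1-1 replicate 2, hcr1-2 stood at -1.35 against hcr1-1, and the adjusted p (limma) remained above 0.05 in each of these fits.

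CML38 was among the transcripts that varied most between pools of the same genotype. Its pooled SD within genotypes was 0.83 log2 units, and 9 of the 16746 rows had a larger one, 5 of them on the core hypoxia list. The median over all rows was 0.18. The limma fit draws the variance of each row toward that typical of all rows. Its intervals and p-values for CML38 therefore rest on a smaller spread than 0.83. In it the 95% interval of a comparison between 2 genotypes reached 1.10 log2 units to either side. That interval is for 1 gene before adjustment, in the fit without a replicate block. Smaller differences of CML38 were not resolved in that fit. The larger one of -1.57 in hcr1-2 did not pass after adjustment (limma adjusted p 0.903).

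The level of CML38 in an array went with that of other genes of the hypoxia response. The core hypoxia list named 50 genes that low oxygen induces, of which CML38 and 23 others had a tested row. The mean of the 23 others was 6.14, 5.05 and 6.19 in the hcr1-1 arrays, 5.08, 5.21 and 5.72 in the hcr1-2 arrays and 6.43, 5.63 and 6.55 in the Col-0 arrays. The arrays lowest in CML38 were the same 3 arrays that were lowest in this mean, namely hcr1-1 replicate 2 and hcr1-2 replicates 1 and 2. Across the 9 arrays Pearson r was 0.992 and Spearman rho 0.933, and r was 0.987 without the 2 arrays farthest from the median. With the genotype means subtracted, r was 0.989, so arrays of the same genotype differed in both measures together. The points share the array and its normalization, and the pattern across arrays was known when the list was set, so these values describe the 9 arrays and carry no test.

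**Figure D2:**
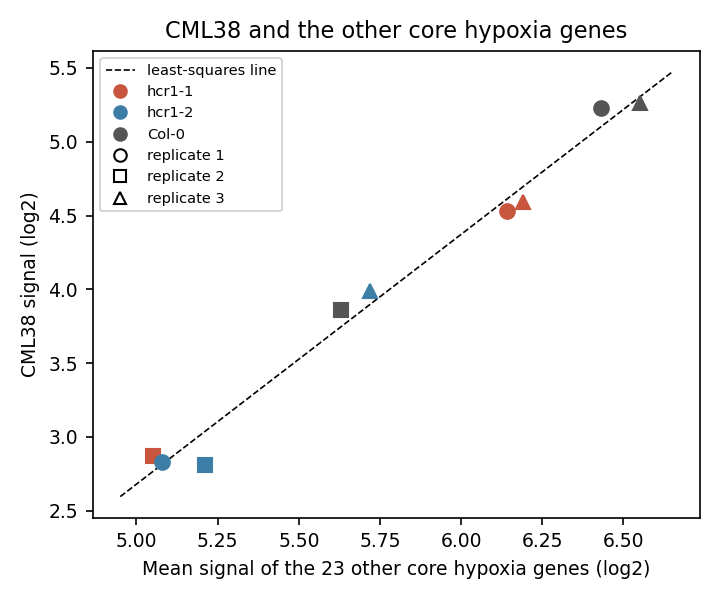
CML38 log2 signal (vertical axis) against the mean log2 signal of the 23 other measured core hypoxia genes (horizontal axis), 1 point per array, coloured by genotype with the replicate number as symbol and a least-squares line. The 9 points lie along a line with a slope of 1.70, and no point departs from it by more than 0.23 log2 units.

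The fitted levels of 22 of these 23 genes were under Col-0 in hcr1-2 and 22 were in hcr1-1, beside 7866 and 8216 of all 16746 rows. The median of their log2 fold changes was -0.77 in hcr1-2 and -0.43 in hcr1-1, beside 0.011 and 0.0029 over all tested rows. None passed the limma test in any comparison. At an unadjusted p under 0.05, 17 were lower in hcr1-2 (2.35% of all rows), 1 in hcr1-1 (1.28%), 10 over both alleles (1.64%) and 1 in hcr1-2 against hcr1-1 (2.31%). In each of the 4 comparisons 0 were higher, beside 3.05%, 1.95%, 2.08% and 3.02% of all rows in the same order. With no overlap of arrays, 7 were lower in hcr1-2 (4.34% of all rows), 1 in hcr1-1 (4.02%), 1 over both alleles (0.711%) and 1 in hcr1-2 against hcr1-1 (4.54%). The genes were known to vary together over these arrays, so the counts are not 23 separate observations.

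The range of CML38 was wider than that of the shared level. CML38 moved by 1.70 log2 units per unit of the core mean, and by 1.64 to 1.74 when each array was left out in turn. Each of the 23 other genes was set in the same way against the mean of the remaining 22, with CML38 left out. Of these, 4 had a steeper slope than CML38, and their median slope was 0.93, from -0.039 to 2.53. Departures from the CML38 line had an SD of 0.13 log2 units.

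CML38 was also expressed as its difference from the core mean of the same array. Because the slope was 1.70 and not 1, this difference still carries part of the core level and falls where that level is low, so its tests do not separate CML38 from the shared level. The difference was -1.61, -2.19 and -1.60 in hcr1-1, -2.25, -2.40 and -1.73 in hcr1-2 and -1.19, -1.77 and -1.29 in Col-0. In hcr1-2 it lay 0.71 log2 units below Col-0 (means -2.13 ± 0.35 and -1.41 ± 0.31, SD, n = 3 each, exact two-sided permutation p = 0.2). In hcr1-1, at -1.80 ± 0.34 (SD, n = 3), it lay below Col-0 by 0.38 log2 units (exact permutation p = 0.3). The 6 mutant arrays averaged -1.96 ± 0.36 (SD) and lay below Col-0 by 0.55 log2 units (exact permutation p = 0.0952). With the median of the 23 genes in place of their mean, the mutant arrays lay below Col-0 by 0.53 log2 units and the exact permutation p was 0.0476. In a limma fit over all rows with the core mean as a covariate, the log2 fold change of CML38 was -0.14 (SE 0.13) in hcr1-1, -0.19 (SE 0.16) in hcr1-2 and -0.16 (SE 0.13) over both alleles, against -0.79, -1.57 and -1.18 without the covariate. That fit lets the slope vary by gene. CML38 and the core mean had an r of 0.992 over the arrays, and the list was set with the pattern known. Smaller fold changes were therefore bound to follow in that fit, and they do not divide the difference between genotype and pools. The core mean itself averaged 5.80 ± 0.64 in hcr1-1, 5.34 ± 0.34 in hcr1-2 and 6.20 ± 0.50 in Col-0 (SD, n = 3 each), and exact permutation tests against Col-0 gave p = 0.5 for hcr1-1 and p = 0.2 for hcr1-2. An effect of genotype on both and a difference between pools in both cannot be told apart.

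Among all 16745 other tested rows, 90 had an r of at least 0.9 with CML38 over the 9 arrays (0.538%), and 22 had an r of -0.9 or less. On the core hypoxia list 16 of the 23 genes reached 0.9, with a list median of 0.968 beside -0.045 over all tested rows. Of the 20904 rows without an annotated gene, 86 reached 0.9. The 10 genes most like CML38 held 6 core hypoxia genes. AlaAT1 (AT1G17290), an alanine aminotransferase that turns pyruvate into alanine, came first with an r of 0.992 and placed the 9 arrays in the same order as CML38 (Spearman rho 1.0). It held 8.27, 7.12 and 8.29 in hcr1-1, 7.05, 7.0 and 7.77 in hcr1-2 and 8.50, 7.71 and 8.81 in Col-0. Its log2 fold change was -1.07 (SE 0.35) in hcr1-2 and -0.45 (SE 0.35) in hcr1-1, short of the threshold in both (limma adjusted p 0.903 and 1.00).

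The next in order were AT3G11930 with an r of 0.991, CP5 (AT1G64720) with 0.989 and AT3G03270 with 0.987. HRA1 (AT3G10040), the trihelix protein that dampens the hypoxia response, followed with 0.986. It held 6.28, 5.09 and 6.44 in hcr1-1, 5.29, 4.92 and 5.94 in hcr1-2 and 6.76, 5.62 and 6.91 in Col-0, so that hcr1-1 replicate 2 and hcr1-2 replicates 1 and 2 were again the lowest arrays. AT4G24110 (r 0.983), AT2G14247 (r 0.982), AT5G10040 (r 0.981), AT1G03610 (r 0.979) and PDC2 (AT5G54960, r 0.979), a pyruvate decarboxylase of ethanol fermentation, completed the 10. Their ranges differed: AT5G10040 spanned 3.41 log2 units over the arrays and PDC2 1.21, beside 2.45 for CML38. With the genotype means subtracted, AT5G44730 of the core hypoxia list was the most similar (r 0.996), followed by AlaAT1, AT3G11930, PDC2 and HRA1. It held 5.20, 4.03 and 5.16 in hcr1-1, 4.14, 4.0 and 4.86 in hcr1-2 and 5.38, 4.37 and 5.47 in Col-0.

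Other core hypoxia genes high in this order were AT2G17850 and AT3G27220 (both r 0.977) and AT3G23170 (r 0.970). AT2G17850 spanned 3.04 log2 units and AT3G23170 2.94, both more than CML38. At the other end of the list, 7 of the 23 had an r under 0.9. AT5G45960 stood at -0.18 and AT1G72940 at 0.47, and both were dim, with means over the arrays of 1.54 and 1.26. AT1G10140 had 0.74, AT4G17670 0.76 and AT3G10020 0.78. AT1G10140 stood lower in both lines by nearly the same amount, with a log2 fold change of -0.57 in hcr1-1 and one of -0.56 in hcr1-2, at 4.86 to 5.39 in the mutant arrays, against 5.42 to 5.87 in Col-0. Its r with CML38 was 0.62 with the genotype means subtracted. As for CML38, replicate 2 was its lowest array in hcr1-1 and in Col-0, while in hcr1-2 its lowest was replicate 3, the highest there for CML38.

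The genes that ran most opposite to CML38 moved little. AT1G56220 had the lowest r, -0.965, and held 7.09, 7.52 and 7.10 in hcr1-1, 7.71, 7.83 and 7.27 in hcr1-2 and 6.99, 7.28 and 6.93 in Col-0. Its range was 0.90 log2 units, and its log2 fold changes were 0.54 (SE 0.17) in hcr1-2 and 0.17 (SE 0.17) in hcr1-1. AT5G18130 (r -0.950), AT1G29520 (r -0.938), AT3G43670 (r -0.938) and AT1G28400 (r -0.936) followed, with ranges of 0.26 to 0.68 log2 units. None of the 5 passed the limma test.

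**Figure D3:**
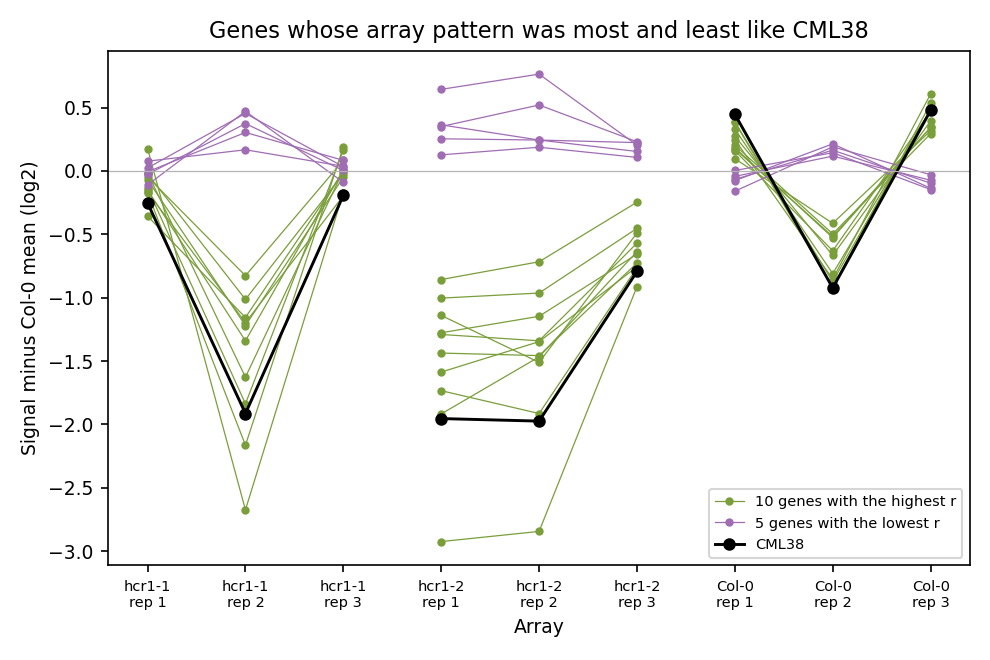
Log2 signal minus the Col-0 mean (vertical axis) in each array (horizontal axis) for CML38 (black), the 10 genes with the highest r with it (green) and the 5 with the lowest (purple). Lines join the arrays of a genotype only so that a gene can be followed. CML38 and the green genes are lowest in hcr1-1 replicate 2 and hcr1-2 replicates 1 and 2.

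The other genes of the calmodulin and calmodulin-like family varied less between pools of a genotype than CML38 did at the median, and none followed it closely. Of 57 loci on the family list, 34 had a tested row, CML38 included. Among the 33 others none reached an r of 0.9 with CML38, the median r was -0.096 and the values ran from -0.85 to 0.61. Their median SD within genotypes was 0.20, beside 0.83 for CML38 and 0.18 over all tested rows. The widest ranges over the 9 arrays were 1.74 log2 units in AT2G36180 and 1.47 in AT3G29000. None passed the limma test in any comparison. Before adjustment 2 of the 33 were higher in hcr1-2 than in Col-0 at p under 0.05 and 0 lower, beside 3.05% and 2.35% of all rows, and in hcr1-1 1 was higher and 0 lower, beside 1.95% and 1.28%. Over both alleles 2 were higher and 0 lower (2.08% and 1.64% of all rows), and in hcr1-2 against hcr1-1 it was 1 higher and 1 lower (3.02% and 2.31%). With no overlap of arrays, 4 of the 33 were higher in hcr1-2 and 0 lower (6.1% and 4.34% of all rows), and in hcr1-1 it was 1 higher and 1 lower (5.18% and 4.02%). Over both alleles it was 0 in either direction (1.11% and 0.711% of all rows), and in hcr1-2 against hcr1-1 it was 2 higher and 2 lower (5.31% and 4.54%). The median log2 fold change of the 33 was 0.018 in hcr1-1 and 0.092 in hcr1-2, beside 0.0029 and 0.011 over all tested rows.

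CML39 (AT1G76640), the neighbouring gene in the RefSeq gene table, had the highest r of the family with CML38, 0.613, and 0.359 with the genotype means subtracted. It was dim, at 1.83, 1.48 and 1.70 in hcr1-1, 1.83, 1.49 and 1.28 in hcr1-2 and 2.23, 1.60 and 1.92 in Col-0. Its log2 fold change was -0.24 (SE 0.18) in hcr1-1 and -0.38 (SE 0.18) in hcr1-2, and the groups overlapped. CML38 and CML39 are related in sequence, and whether their probes share signal was not tested. CML37 (AT5G42380), another close relative, held 1.26 to 2.11 over the 9 arrays. Its hcr1-1 mean differed from Col-0 by 0.23 log2 units (SE 0.15) and its hcr1-2 mean by -0.12 (SE 0.15). It was singled out after its values were seen.

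Of the 10 family members with the smallest p over both alleles, CML39 lay below Col-0, at -0.31 (SE 0.16), and the others lay above it. CML43 (AT5G44460), a calcium sensor of the same family, held 2.48, 2.72 and 2.51 in hcr1-1, 2.90, 2.66 and 2.64 in hcr1-2 and 2.27, 2.60 and 1.87 in Col-0. All 3 hcr1-2 arrays lay above Col-0, at a log2 fold change of 0.49 (SE 0.17, limma adjusted p 0.903). AT2G36180 held 2.55, 2.77 and 1.90 in hcr1-1, 3.07, 3.64 and 2.84 in hcr1-2 and 2.31, 2.62 and 1.90 in Col-0. Its log2 fold change was 0.91 (SE 0.26) in hcr1-2 and 0.13 (SE 0.26) in hcr1-1. CML43 and AT2G36180 ran opposite to CML38 over the 9 arrays, with an r of -0.85 and -0.84. With the genotype means subtracted the r was -0.72 and -0.75, so part of their variation lay between pools of a genotype. AT3G29000 stood at 0.59 (SE 0.25) in hcr1-1 and 0.29 (SE 0.25) in hcr1-2. Over the mean of both alleles AT3G59450 stood at 0.20, AT3G10190 at 0.16, AT4G26470 at 0.16, AT3G59440 at 0.13, AT1G73630 at 0.13 and AT2G41410 at 0.12.

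**Figure D4:**
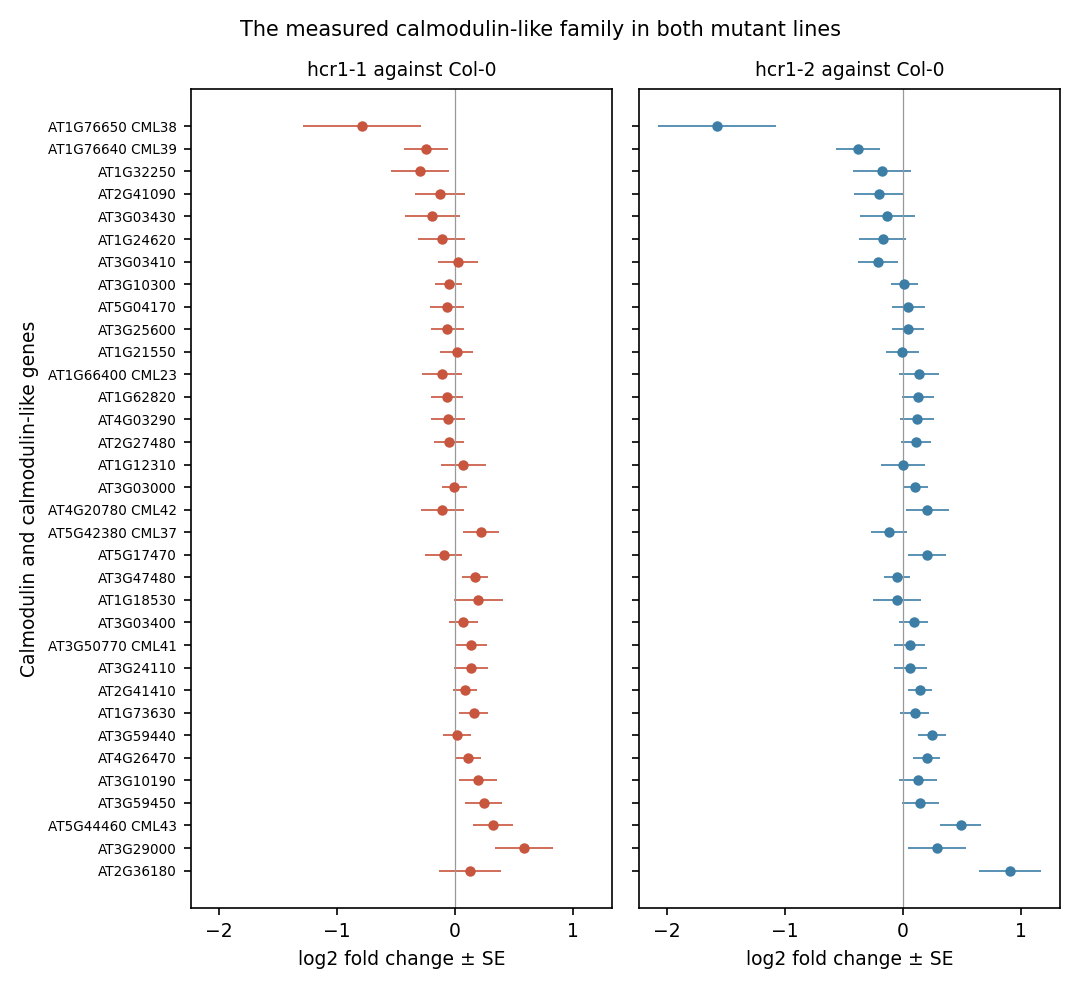
Log2 fold change ± SE (horizontal axes, limma) of the 34 measured calmodulin and calmodulin-like genes (vertical axis) in hcr1-1 (left) and hcr1-2 (right) against Col-0. CML38 lies lowest in both panels, at -0.79 and -1.57, while the 33 others lie between -0.38 and 0.91.

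The genes on both sides of the CML38 and CML39 pair in the gene table, AT1G76630 and AT1G76660, lay near Col-0 in both lines. AT1G76630 differed from Col-0 by 0.058 (SE 0.10) in hcr1-1 and 0.014 (SE 0.10) in hcr1-2, and AT1G76660 of 0.11 (SE 0.13) and -0.17 (SE 0.13). Other genes of calcium signalling and of the processes tied to CML38 were sparsely covered by annotated rows. Of 80 calcium signalling genes 3 were measured, AT1G67310, AT4G16150 and AT3G16940, with log2 fold changes between -0.084 and 0.12 in both lines and r with CML38 from -0.31 to 0.42. Of 21 genes of RNA granules and autophagy 4 were measured. The mRNA decapping scaffold VCS (AT3G13300) had 0.0041 in hcr1-1 and 0.025 in hcr1-2, and AT3G14100 had -0.065 and -0.013. The autophagosome protein ATG8E (AT2G45170) had -0.13 and 0.12, and its relative APG8A (AT4G21980) -0.014 and 0.067. Their r with CML38 ran from -0.15 to 0.13. Of 16 touch and wound genes 1 was measured, the zinc finger repressor STZ (AT1G27730), at 0.53 (SE 0.23) in hcr1-1 and -0.20 (SE 0.23) in hcr1-2, with an r of 0.13 with CML38. No gene of the oxygen sensing list was on a tested row.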

How the data were processed

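Per the submitters' processing notes, the authors made the deposited log2 values in Affymetrix Expression Console by RMA, a method that corrects background, brings the arrays to 1 distribution and combines the probes of each row. Versions, settings and genome build are not given in the sources used here. Scanner output was not used, so detection could not be called, and RMA removes differences in total signal between arrays. Gene identities came from the platform annotation, and symbols and gene order from a RefSeq gene table (TAIR10.1) that 16601 of the 16746 rows with 1 gene matched. Sequences were not used here.

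All 16746 rows were fitted by lmFit and eBayes of limma 3.58.1 (R 4.3.3) over the 9 arrays, grouped by sample title, in 4 contrasts with Benjamini-Hochberg adjustment at 0.05. Exact permutation tests (scipy 1.17.1) were two-sided. The labels call the samples biological replicates. The number of arrays limits the precision, and no scan date or slide was at hand to test as a batch. The fit was tested on simulated data.

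CML38, the lists and the tests were chosen with earlier results of these data known. Genes were named by rule: CML38 and HCR1, the 10 highest and 5 lowest r with CML38, the 5 highest with genotype means subtracted, 10 core hypoxia genes by r, and up to 10 family members and 4 of each other list by the smallest p over both alleles. A gene with several rows was taken by its brightest. AT5G45960, AT1G72940, AT1G10140, AT4G17670, AT3G10020, CML37, AT1G76630 and AT1G76660 were named after their values were seen.

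Alternatives for the fit used the groups compared and no others, a replicate block, quantile or median scaling, bright rows or every row, variances with trend and robust fitting, weighted arrays, 0.1 as the adjusted threshold and the core mean as covariate. The rest were other summaries of the core list, other measures of likeness and leaving out each array.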

Additional observations from a re-analysis of the deposited data

How the results depend on the processing

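CML38 stood below its comparison group in every fit of all 4 comparisons, and no fit took it past the threshold. Leaving out each array in turn, its log2 fold change ran from -1.25 to -0.22 in hcr1-1, from -2.04 to -1.34 in hcr1-2, from -1.64 to -0.90 over both alleles and from -1.35 to -0.49 in hcr1-2 against hcr1-1. The covariate fit gave the smallest values, -0.14, -0.19, -0.16 and -0.05 in the same order. Over all alternatives the limma adjusted p was 0.999 or more in hcr1-1, 0.323 to 1.00 in hcr1-2, 0.815 to 1.00 over both alleles and 0.573 to 1.00 between the alleles.

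Same-numbered arrays did not deviate together over all rows (r from -0.19 to 0.16, over 0.1 in 2 of 9 pairs). Pairs of different number ran from -0.20 to 0.24 and were over 0.1 in 3 of 18. The numbers were therefore not read as pairs. That check covers the rows as a whole and does not speak for single genes. For CML38, replicate 2 was the lowest and replicate 3 the highest array in each genotype. Its same-numbered differences from Col-0 were -0.70, -0.99 and -0.67 in hcr1-1 and -2.40, -1.05 and -1.27 in hcr1-2. The labels do not say what a number stands for, and whether it marks something shared for CML38 was not tested. With the replicate block CML38 kept its log2 fold changes (-0.79, -1.57, -1.18 and -0.79). The SE between 2 genotypes was 0.27, against 0.50 without the block. The unadjusted limma p was 0.0152 in hcr1-1, 0.000193 in hcr1-2, 0.000551 over both alleles and 0.0155 between the alleles. The smallest adjusted p of CML38 with the block was 0.323, in hcr1-2, and the count of called rows was 0 in each comparison.

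CML38 minus the other core hypoxia genes ran from -0.56 to -0.19 in hcr1-1, -0.91 to -0.58 in hcr1-2, -0.72 to -0.44 over both alleles and -0.53 to -0.19 between the alleles when each array was left out. With the median of those genes it was -0.53 over both alleles (exact permutation p = 0.0476). The cause was not tested, and this difference still carries part of the core level.

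A fit of the compared groups alone was not run for the mean of both alleles, which uses all 3 groups already. The count of rows past the threshold in hcr1-1 was 1 with dim rows left out and 1 with trended and robust variances, and 0 to 1 with each array left out. That row was HCR1. Over both alleles it was 0 to 2, and the 2 without hcr1-1 replicate 3 were HCR1 and AT5G35940. Between the alleles and in hcr1-2 it was 0 in all fits. As reported, with 0 called, 542 rows in hcr1-1, 904 in hcr1-2, 624 over both alleles and 893 between the alleles had an unadjusted limma p under 0.05.

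Of the 10 genes most like CML38, 3 stayed by Spearman rho (the cause was not tested), 8 with genotype means subtracted and 6 to 9 with each array left out. The count of core hypoxia genes with an r of at least 0.9 was 16 to 17 in alternatives chosen after seeing the data.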
